A study of Mus musculus with 7 samples.

Results

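The genes described here were 10 transcripts that mark the intermediate filaments, the cell surface and the secretions of reactive astrocytes. They are Gfap, Vim, Nes and Synm (intermediate filament proteins), Cd44 and Osmr (cell-surface receptors), S100a6 (a calcium-binding protein), Serpina3n and Lcn2 (secreted proteins) and Aspg (an asparaginase). They were matched by symbol among 55536 genes, and all 10 were present in the count matrices. The question was how the levels of these genes in hippocampal nuclei differed between wild-type (WT) and Arctic48 mice, and whether PMX205, an antagonist of the complement receptor C5aR1, changed them.

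Astrocytes supply neurons with metabolites, clear glutamate and potassium, and cover blood vessels with their endfeet. Near injury or amyloid deposits they become reactive, and Gfap, the main intermediate filament protein of mature astrocytes, is the usual marker of that state. Vimentin and nestin are filament proteins of immature astrocytes that reappear in reactive ones, synemin co-assembles with them, CD44 binds hyaluronan of the matrix, and the oncostatin M receptor signals through JAK kinases and STAT3.

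Arctic48 mice were hemizygous for a human amyloid precursor protein (APP) transgene that carries the Indiana, Swedish and Arctic mutations, on a C57BL6/J background, and WT mice came from the same crosses without the transgene. Per the labels, PMX205 was given at 20 µg/ml in the drinking water for 12 weeks (the study's text gives a span of ages that is somewhat shorter) and vehicle mice drank water alone, and all mice were 10 months old when the hippocampi were taken. The 4 groups, WT-veh and WT-PMX for wild-type mice on vehicle or PMX205 and Arc-veh and Arc-PMX for Arctic48 mice, each had 6 single-nucleus wells, 3 from females and 3 from males (F1 to F3 and M1 to M3). Each well held hippocampal nuclei of 1 mouse and is the replicate throughout, and 7 sublibraries each mixed all 48 first-round wells of the plate, of which 24 held nuclei. The other wells held CD11b-selected cells and are not analysed here.

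After filtering, 45138 nuclei remained, 1253 predicted doublets were removed and 43885 nuclei were clustered, with 4389302 to 30001277 transcripts per well. Of 40769 distinct cell barcodes, 4080 occurred in 2 or more sublibraries, which were treated as separate nuclei. WT-veh F3 and M3 stood apart in cell makeup, with 15 and 28 oligodendrocyte nuclei where the other 22 wells had 97 to 294, and 0 and 3 microglia. In astrocytes each of the 7 members testable there stayed called in Arc-veh against WT-veh without these 2 wells (Gfap log2 fold change 3.12, S100a6 1.98). The study states that it dropped a sample labelled WT whose expression looked Arctic, without naming its well in the sources used here, and all 12 WT wells were kept. Among them the highest Gfap level in astrocytes was 307 CPM and the lowest in the Arctic wells was 749.5 CPM. The astrocyte markers (glutamate transporters, Aqp4, Gja1 and others, none of them a member) named 5490 astrocyte nuclei, 117 to 332 per well and with 103106 to 1154893 transcripts per well. All 9 astrocyte markers were detected in these nuclei in each group, with a summed level between 23420 and 37260 counts per 1000000 transcripts (CPM). App, which may count transcripts of the transgene as well, had a median of 484 CPM in neurons of WT-veh, 531 in WT-PMX, 624 in Arc-veh and 661 in Arc-PMX wells. On vehicle the WT wells reached 532 CPM and the Arctic ones started at 570. Under PMX205 the genotypes overlapped, with WT wells up to 574 CPM and Arctic ones from 552.

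Where the members' transcripts lay differed between members and, for several, between genotypes. Pooled over all 24 wells, which gives the Arctic wells more weight for members that are higher there, astrocytes held 93.0% of the 10916 Gfap transcripts in the nuclei, 91.2% of Aspg, 90.9% of Lcn2 and 83.0% of Osmr. Their share was 66.3% for Vim and 66.1% for S100a6. It was 44.4% for Cd44, 32.2% for Serpina3n, 16.9% for Nes and 2.03% for Synm. Neurons held 70.9% of Synm transcripts, 42.3% of Cd44 and 43.0% of Serpina3n, and they were by far the largest class with 26126 nuclei. Within WT-veh and Arc-veh the astrocyte share was 88.7% and 93.0% for Gfap, 62.5% and 91.7% for Aspg, and 50.8% and 84.6% for Osmr. It was 28.3% and 74.3% for Vim, 15.3% and 55.8% for Cd44, 48.3% and 69.9% for S100a6, and 2.68% and 45.1% for Serpina3n. In WT-veh, then, most transcripts of Vim, Cd44, Serpina3n and, narrowly, S100a6 (14 of 29 inside) lay outside astrocytes, and no Lcn2 transcript was found in any WT nucleus. Cell types were set by clusters of the same nuclei, so these shares are a description.

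**Figure D1:**
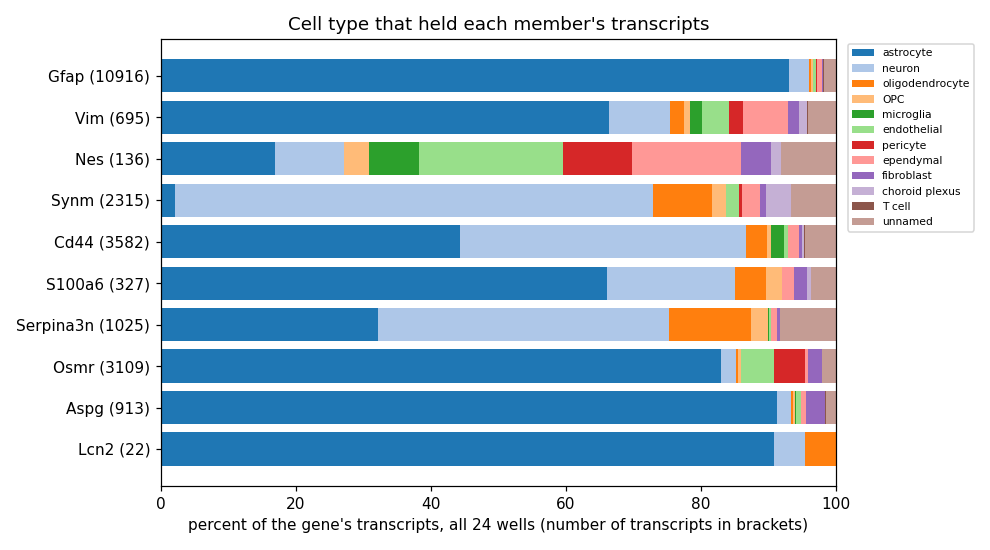
Share of each member's transcripts (horizontal axis, percent over all 24 wells) held by each cell type, with the number of transcripts in brackets. Gfap, Aspg, Lcn2 and Osmr lie mostly in astrocytes, with 93.0, 91.2, 90.9 and 83.0%, while Synm lies mostly in neurons with 70.9%. The shares weigh the Arctic wells more for members that are higher there.

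Gfap rose in Arctic astrocytes without overlap between the genotypes. In WT-veh the 6 wells had a lowest, median and highest level of 126, 138 and 195 CPM, and in Arc-veh of 749.5, 1366 and 1909 CPM. The log2 fold change was 3.11 (SE 0.20, adjusted p = 1.89e-14, edgeR quasi-likelihood test with Benjamini-Hochberg adjustment over all genes), an 8.62-fold difference. The corresponding levels were 109, 234 and 307 CPM in WT-PMX and 751.6, 1341 and 1657 CPM in Arc-PMX, so all 6 Arctic wells lay above all 6 WT wells under PMX205 too (log2 fold change 2.35, SE 0.19, adjusted p = 2.74e-12). Gfap is a protein-coding gene on the minus strand at chr11:102887336-102900912 (GRCm38, GENCODE).

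The promoter windows of Gfap, Osmr and Serpina3n are shown because these genes rose together in Arc-veh against WT-veh. Gfap and Osmr had the larger change there of the filament genes and of the receptors tested, and Serpina3n was the secreted member that could be tested. Each is the 250 bases before the RefSeq start on the gene's own strand, 5′ to 3′, in build GRCm38.p6 (chr11:102897201-102897450, minus strand, for Gfap, chr15:6874314-6874563, minus strand, for Osmr, and chr12:104406458-104406707, plus strand, for Serpina3n), and capitals mark matches to the NF-kB motif (GGGA and CC with any 4 bases between them) on either strand.
Gfap: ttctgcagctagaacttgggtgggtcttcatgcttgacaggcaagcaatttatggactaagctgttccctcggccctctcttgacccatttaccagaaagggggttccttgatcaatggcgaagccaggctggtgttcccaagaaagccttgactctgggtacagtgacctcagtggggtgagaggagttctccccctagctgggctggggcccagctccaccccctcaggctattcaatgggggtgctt
Osmr: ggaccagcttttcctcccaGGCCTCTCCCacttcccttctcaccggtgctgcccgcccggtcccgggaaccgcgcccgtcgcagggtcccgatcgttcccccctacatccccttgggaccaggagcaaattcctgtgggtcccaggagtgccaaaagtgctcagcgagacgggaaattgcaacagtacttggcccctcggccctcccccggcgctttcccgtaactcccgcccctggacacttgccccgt
Serpina3n: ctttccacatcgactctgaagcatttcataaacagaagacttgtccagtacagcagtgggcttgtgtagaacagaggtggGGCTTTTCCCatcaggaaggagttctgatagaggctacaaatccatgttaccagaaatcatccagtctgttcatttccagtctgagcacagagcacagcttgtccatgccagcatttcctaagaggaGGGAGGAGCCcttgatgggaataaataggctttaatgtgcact
The NF-kB motif stood in 5 of the 10 member windows (Nes, Osmr, Serpina3n, Synm and Vim) and in 17.6% of 32851 promoters. The STAT motif TTCNNNGAA and the AP-1 motif TGANTCA stood in none of the 10, and in 7.02% and 6.75% of all promoters. These 3 motifs were the ones searched, the windows exclude bases after the start, and a match or its absence is a description of the letters in them. The RefSeq start differs from the GENCODE one for all members but Synm and Cd44. The windows of Gfap, Osmr, Vim and Lcn2 lie inside the GENCODE spans given for these genes.

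Of the 10 members, 7 passed the filter on low counts in astrocytes, which asked for a level of 20.4 CPM in at least 6 wells. Gfap, Cd44 and Osmr would have passed with the WT wells alone, where 12, 10 and 11 of 12 reached it. Vim and Aspg reached it in 1 WT well each and Serpina3n and S100a6 in none, so these 4 were tested because of their Arctic wells and had to differ. The count over the 7 is therefore a description and no support. All 7 rose in Arc-veh against WT-veh, where 7.3% of the 7359 genes tested were called higher and 5.07% lower. For each of the 7 the lowest Arc-veh level exceeded the highest of WT-veh, which held for 4.81% of all genes. Nes, Synm and Lcn2 were too sparse to test.

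Vim (chr2:13573927-13582826, plus strand), which encodes vimentin, was 52.6 ± 18.7 CPM (SD, n = 6) in Arc-veh against 6.16 ± 5.21 CPM in WT-veh, and no transcript was found in WT-veh F3 and M3. Its wells ranged from 33.0 to 72.8 CPM with the transgene and from 0 to 12.3 CPM without it. The log2 fold change was 2.80 (SE 0.36, adjusted p = 2.07e-07).

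Among the surface receptors, Osmr (chr15:6813577-6874969, minus strand), which binds oncostatin M, had a lowest, median and highest level of 19.1, 32.1 and 35.7 CPM in WT-veh wells and of 208, 283 and 532 CPM in those of Arc-veh. The groups did not overlap, and Arc-veh M2 was the highest well. The log2 fold change was 3.40 (SE 0.24, adjusted p = 1.40e-13). Cd44 (chr2:102811141-102901665, minus strand), the hyaluronan receptor, had 11.9, 31.0 and 48.4 CPM in WT-veh wells and 152, 204 and 287 CPM in those of Arc-veh. It rose by a log2 fold change of 2.64 (SE 0.25, adjusted p = 2.69e-10).

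Serpina3n (chr12:104406729-104414329, plus strand), a secreted serine protease inhibitor, showed the largest change of the 7 tested members and the fewest WT transcripts among them. In WT-veh the wells held 0 to 5.95 CPM, from 3 transcripts in all, and in Arc-veh 33.6 to 75.5 CPM from 173 transcripts. The ratio of the pooled levels was 37.9 (95% interval 12.8 to 186, counting error only), and the fitted log2 fold change was 4.96 (SE 0.62, adjusted p = 1.33e-07). Its 9 neighbours in the Serpina3 cluster, several of them near-identical in sequence, did not reach the filter, and reads that fit more than 1 of them could have been split or dropped.

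Aspg (chr12:112106679-112127559, plus strand), which encodes an enzyme that cleaves asparagine, had 9.70, 11.5 and 19.6 CPM as the lowest, median and highest WT-veh well and 71.2, 99.4 and 178 CPM in Arc-veh. The log2 fold change was 3.05 (SE 0.31, adjusted p = 8.87e-10). S100a6 (chr3:90612882-90624181, plus strand) ranged from 0 to 9.68 CPM in WT-veh wells and from 9.74 to 37.6 CPM in those of Arc-veh, so the lowest Arctic well, M3, was only just above the highest WT well. Its log2 fold change of 2.17 (SE 0.45, adjusted p = 0.000599) was the smallest of the 7.

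**Figure D2:**
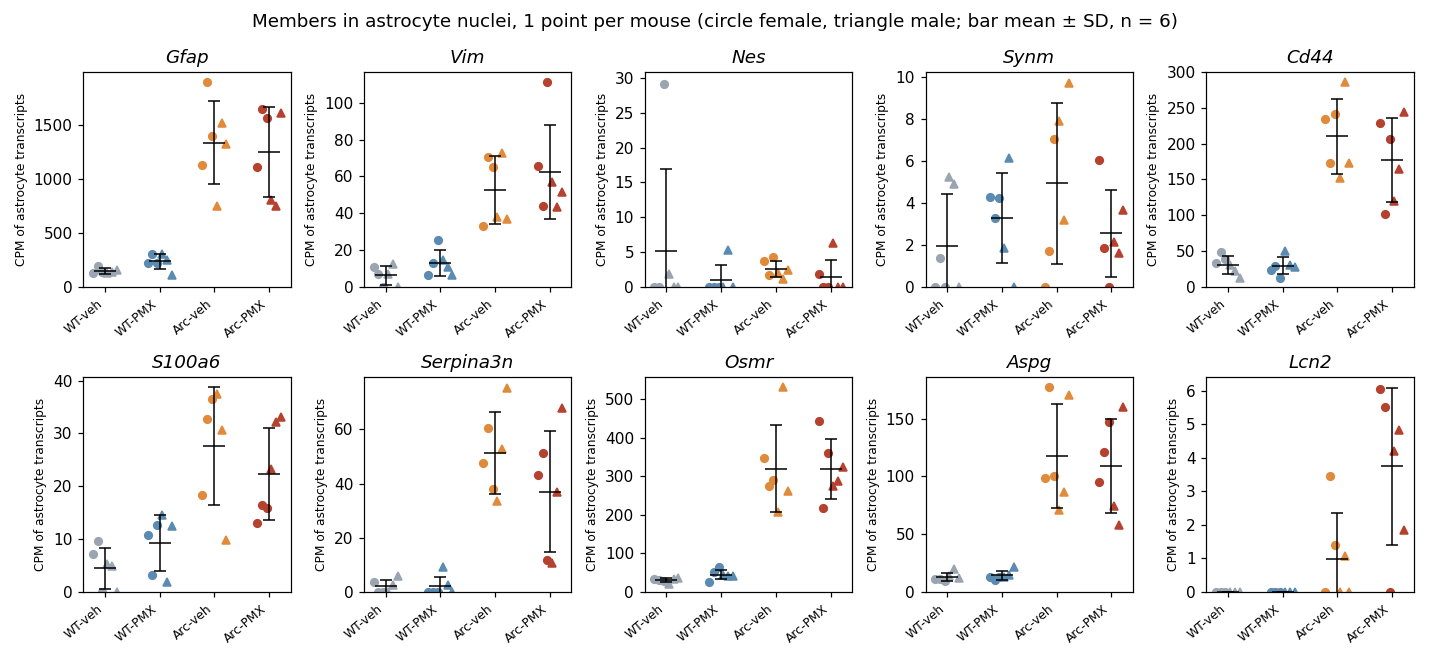
Level of each member in astrocyte nuclei (vertical axis, CPM of the transcripts of a well's astrocytes) by group, with 1 point per mouse and a bar for the mean ± SD (n = 6), cut at 0. For Gfap the 12 WT wells lie between 109 and 307 CPM and the 12 Arctic wells between 749.5 and 1909 CPM.

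The 3 untested members had few transcripts in astrocytes. Lcn2 (chr2:32384633-32388252, minus strand), a secreted siderophore-binding protein, had none in the 2255249 astrocyte transcripts of WT-veh or the 3020182 of WT-PMX, 4 in Arc-veh and 16 in Arc-PMX. It was found in 3 of 6 Arc-veh wells, at up to 3.45 CPM, and in 5 of 6 Arc-PMX wells, at up to 6.06 CPM. The pooled level in Arc-PMX was 4.49 times a floor of 3 transcripts over the WT-PMX group. The 95% interval of the ratio of Arc-PMX to WT-PMX, for counting error only, starts at 3.24. The 4 transcripts of Arc-veh lay under the floor that 3 transcripts set in WT-veh. With no filter on low counts Lcn2 was called in Arc-PMX against WT-PMX (adjusted p = 0.00888). Nes (chr3:87971078-87980451, plus strand) had 23 transcripts in all, in 11 of the 24 wells, and 3 of the 4 WT-veh transcripts came from F3. Synm (chr7:67730160-67759742, minus strand) had 47, with 6 in WT-veh and 17 in Arc-veh, a ratio of 1.86 (95% interval 0.701 to 5.78, counting error only).

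In mice given PMX205, the same 7 members were called higher in Arc-PMX than in WT-PMX astrocytes, where 7.37% of genes were called higher and 3.86% lower. Vim, Aspg, Serpina3n and S100a6 were in this fit too because of their Arctic wells. The count is therefore a description and no support. Vim ranged from 6.23 to 25.2 CPM in WT-PMX and from 43.5 to 111 CPM in Arc-PMX (log2 fold change 2.25, SE 0.30, adjusted p = 4.69e-07). Osmr ranged from 25.7 to 63.1 and from 219 to 443 CPM (2.86, SE 0.21, adjusted p = 5.71e-13). The ranges of Cd44 were 12.6 to 49.1 and 101 to 244 CPM (2.50, SE 0.24, adjusted p = 4.65e-10).

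Of the 7, 6 again did not overlap, against 4.16% of all genes, a count that the filter fixes in part and that is a description. S100a6 did overlap, with 1.76 to 14.5 CPM in WT-PMX and 12.99 to 33.1 CPM in Arc-PMX, and its log2 fold change was 1.41 (SE 0.42, adjusted p = 0.0204). This call was lost without WT-PMX F2 (log2 fold change 1.30), WT-PMX M2 (0.95), Arc-PMX M2 (1.26) or Arc-PMX M3 (1.28). Serpina3n had no transcript in 4 of 6 WT-PMX wells and 0 to 9.09 CPM over them, against 10.6 to 68.0 CPM in Arc-PMX, where F3 and M1 were near the highest WT-PMX well. Its log2 fold change was 3.80 (SE 0.52, adjusted p = 6.27e-07), and that of Aspg was 2.83 (SE 0.28, adjusted p = 8.89e-10). The 2 genotype comparisons use different mice.

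PMX205 moved none of the 7 tested members past the threshold in Arctic astrocytes. In Arc-PMX against Arc-veh, 0 members were called by edgeR and 0 by DESeq2, none of the 7 had an unadjusted p under 0.05, and 0.0% of all genes were called higher and 0.0136% lower. Gfap was 1251 ± 416 CPM with PMX205 and 1339 ± 388 CPM without, a log2 fold change of -0.12 with a 95% interval of -0.46 to 0.23. The fitted log2 fold changes of the other 6 ran from -0.40 for S100a6 (95% interval -1.05 to 0.26) to 0.09 for Vim (-0.37 to 0.55). For Osmr it was -0.02 (-0.36 to 0.32), for Cd44 -0.25 (-0.63 to 0.12), for Serpina3n -0.37 (-0.97 to 0.24) and for Aspg -0.13 (-0.54 to 0.28). Lcn2, too sparse to test, had 4 transcripts in Arc-veh and 16 in Arc-PMX, 7 of them in F1. In 4 Arc-PMX wells its level lay above the highest Arc-veh well. The wells of the 2 groups overlapped for each member. These comparisons share the Arctic wells with those by genotype.

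In WT mice, 0 members were called in WT-PMX against WT-veh by edgeR or by DESeq2, and 0.0% of all genes were called in either direction. Gfap was the member with an unadjusted p under 0.05. Its level was 147 ± 25.8 CPM in WT-veh and 233 ± 72.3 CPM in WT-PMX, and 5 of 6 WT-PMX wells lay above the highest WT-veh well while M3, at 109 CPM, was below the lowest. The log2 fold change was 0.64 (SE 0.21, 95% interval 0.22 to 1.07, adjusted p = 0.992). The call changed with the filter: when genes down to 1 count were kept in the fit, the log2 fold change was 0.64 (SE 0.14) and the adjusted p = 0.0263, and in the other alternatives the adjusted p ran from 0.56 to 1.

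The difference between the PMX205 effects in Arctic and WT astrocytes was -0.76 for Gfap (log2 scale, SE 0.27, adjusted p = 1), and 0 members were called by edgeR or DESeq2, against 0.0% of all genes. Gfap alone among the members had an unadjusted p under 0.05. The difference of the genotype effects between females and males was called for 0 members by both tools, with 0 members at an unadjusted p under 0.05 and 0.0% of all genes called. Gfap in Arc-veh averaged 1479 ± 396 CPM in 3 females and 1200 ± 401 CPM in 3 males.

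**Figure D3:**
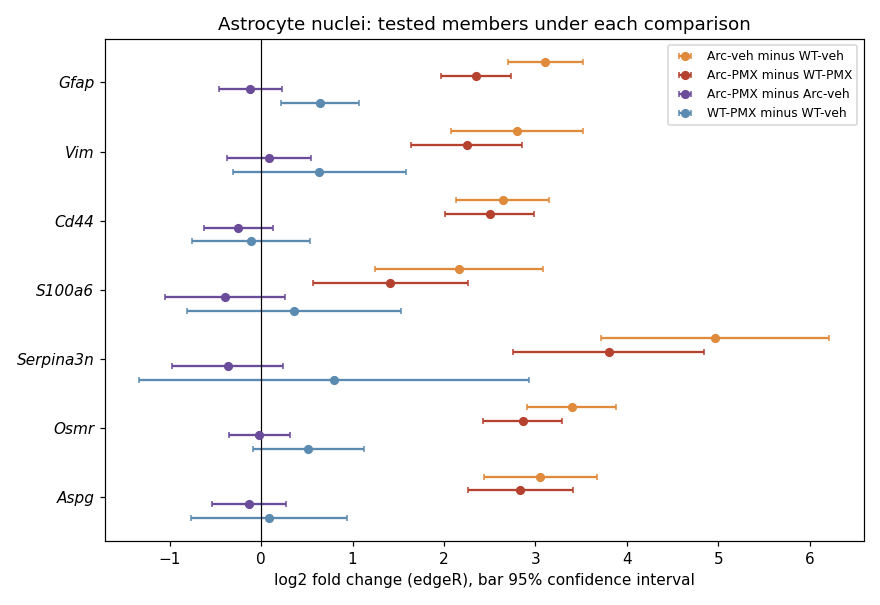
Log2 fold change (horizontal axis) with its 95% confidence interval for the 7 tested members in astrocytes under 4 comparisons. The genotype differences lie between 1.41 and 4.96, and the interval of each Arc-PMX minus Arc-veh difference includes 0.

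Other features of the astrocyte nuclei, their depth and their marker sums, moved with genotype as well. The median number of transcripts per astrocyte nucleus was 1368 in WT-veh, 1638 in WT-PMX, 2456 in Arc-veh and 2165 in Arc-PMX. The 6 neuron markers summed to 620 to 681 CPM in WT-veh astrocytes and 350 to 517 in Arc-veh, and the 7 microglia markers to 47.6 to 78.5 and 81.7 to 191 CPM, with 1 of the 7 at 0 in WT-veh and none at 0 in Arc-veh. The 7 pericyte markers summed to 202 to 277 CPM in WT-veh and 315 to 495 in Arc-veh, with 2 and 3 of the 7 at 0. The other marker lists overlapped between these 2 groups, apart from the astrocyte markers themselves, which summed to 32720 to 37260 and 23420 to 29060 CPM. Their part in the member differences was not tested. In a sum over nuclei of a well, fewer expressing nuclei and less RNA per nucleus cannot be told apart.

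Astrocyte nuclei of WT and Arctic mice were spread differently over clusters that both genotypes shared. Cluster 1 held 89.7% of the WT-veh and 88.3% of the WT-PMX astrocytes, but 38.1% of those of Arc-veh and 41.1% of Arc-PMX, and cluster 14 held 47.8% and 41.8% of the Arctic ones and 1.33% and 1.28% of the WT ones. Cluster 21 held 7.53% of the WT-veh, 9.58% of the WT-PMX, 13.4% of the Arc-veh and 16.55% of the Arc-PMX astrocytes. Within cluster 1, Gfap was 114 CPM in WT-veh nuclei and 451 CPM in those of Arc-veh, Osmr 27.3 and 120 CPM, and Aspg 9.94 and 41.3 CPM. Vim was 3.98 and 3.10 CPM there, from 8 and 3 transcripts, and Cd44 15.9 and 24.8 CPM. In cluster 14, the Arc-veh nuclei had 86.2 CPM of Vim, 305 of Cd44, 1839 of Gfap and 497 of Osmr. All 16 Lcn2 transcripts of Arc-PMX astrocytes and all 4 of Arc-veh were in cluster 14. Clusters were built without the members as variable genes, but from the same nuclei, and these values are pooled over nuclei with no test.

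**Figure D4:**
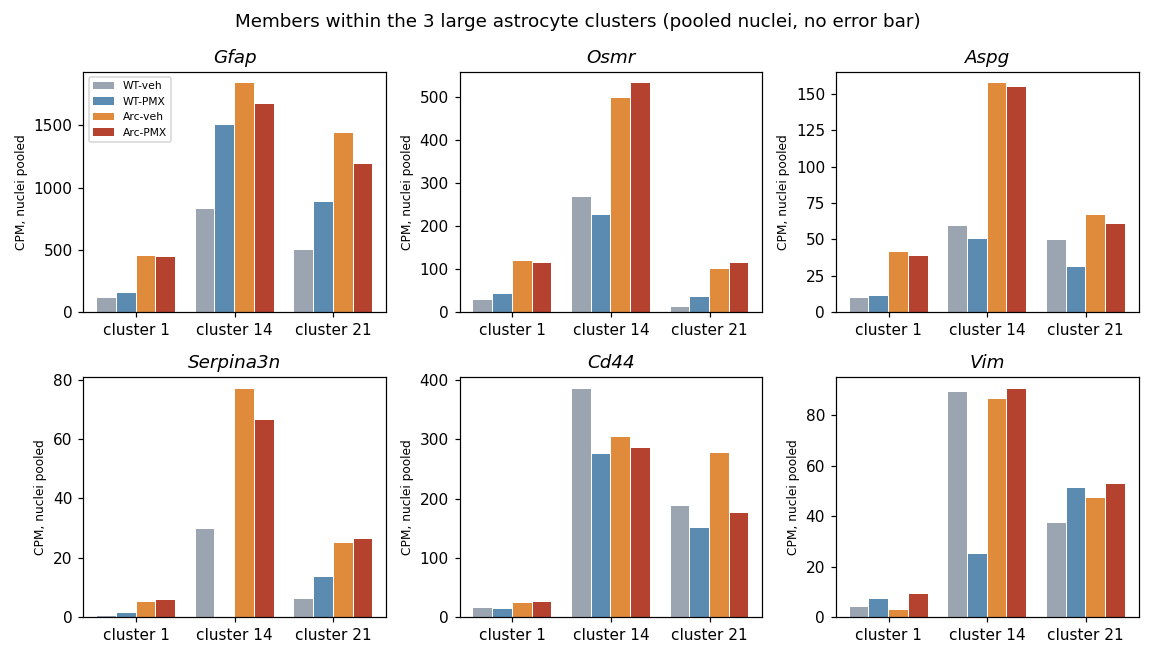
Pooled level (vertical axis, CPM) of 6 members in the 3 large astrocyte clusters, with 1 bar per group and no error bar. In cluster 1 Gfap, Osmr and Aspg stand higher in the Arctic groups, while Vim and Cd44 are low in all 4. Cluster 14 holds 20 WT-veh and 19 WT-PMX nuclei, so its WT bars rest on few transcripts.

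Which nuclei counted as astrocytes mattered for Vim and Cd44. Where predicted doublets were kept, or where members were among the genes used for clustering, the largest astrocyte cluster stayed unnamed, and 1847 and 1975 astrocyte nuclei were left. A cluster stayed unnamed where its depth was under a set share of its wells' medians and none of its 10 top genes was one of its markers. This cluster had 0 markers among its top genes in each run, and its depth relative to the wells' medians was 0.331 and 0.329 in these 2 runs, just under the limit, against 0.334 in the clustering used here, just above it. In Arc-veh against WT-veh, 4 members (Gfap, Serpina3n, Osmr and Aspg) were then called of 6 tested. Vim had log2 fold changes of 0.95 (adjusted p = 0.312) and 0.95 (adjusted p = 0.313), and Cd44 of 0.59 (adjusted p = 0.296) and 0.83 (adjusted p = 0.125). Under another definition of the top genes, which was tried after the members' results were seen, that cluster was named. The same 2 runs then held 5445 and 5470 astrocyte nuclei and all 7 members were called, a count that is a description.

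Nuclei were thinned to 1000 transcripts each to compare shares at equal depth. This left out 465 of 1501 astrocyte nuclei in WT-veh, 279 of 1483 in WT-PMX, 116 of 1213 in Arc-veh and 127 of 1293 in Arc-PMX. A Gfap transcript was found in 13.1% of WT-veh and 55.1% of Arc-veh nuclei, and under PMX205 in 15.9% of WT and 51.1% of Arctic nuclei. Over wells the share ran from 10.4 to 27.8% in WT-veh and from 38.7 to 65.6% in Arc-veh, and in neurons thinned alike it was 0.078% in WT-veh and 0.203% in Arc-veh. Without thinning the Arc-veh share was 69.0%. The median depth before thinning of the nuclei used was 1670.5 transcripts for astrocytes and 7019.5 for neurons in WT-veh, and 2653 and 10699.5 in Arc-veh.

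Osmr was found in 2.80% of WT-veh and 20.9% of Arc-veh astrocyte nuclei, against 0.013% and 0.037% of neurons. For Cd44 the shares were 3.28% and 12.9%, with 0.379% and 0.813% of neurons, and for Aspg 1.35% and 8.02%. Vim was found in 0.772% and 4.10%, and Serpina3n in 0.29% and 4.28%. No Lcn2 transcript was found in 1036 WT-veh nuclei, which allows up to 0.29% of nuclei with a transcript at this depth and sets no limit on nuclei that express the gene, and 1 of 1097 Arc-veh nuclei had one. The share of nuclei with none of the 10 members was 80.4% in WT-veh, 77.7% in WT-PMX, 33.2% in Arc-veh and 37.7% in Arc-PMX, and the share with 3 or more members was 0.193%, 0.581%, 9.75% and 9.26%.

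Members were found in the same Arctic nuclei more often than their separate shares in each well would give. Gfap and Vim were found together in 71 nuclei where 49.8 were expected, a ratio of 1.43, and Gfap and Cd44 in 213 where 152 were expected, with more than expected in 12 of 12 wells for each pair. Gfap and Osmr shared 316 nuclei (242 expected) and Gfap and Serpina3n 62 (42.5 expected), also in 12 of 12 wells. Cd44 and Osmr, both receptors, shared 106 nuclei where 57.9 were expected, a ratio of 1.83, again in 12 of 12 wells. Of 18 pairs with at least 5 nuclei expected, 17 had a ratio above 1 in the pooled nuclei, but pairs of the sparser members did so in fewer wells. S100a6 and Osmr shared 15 nuclei where 7.76 were expected, with more than expected in 5 of 12 wells and 7 of the 15 nuclei in Arc-veh M1. At 500 transcripts per nucleus this pair had 2 nuclei against 2.41 expected, and Cd44 and Serpina3n had 3 against 3.67, where they had 18 against 9.51 at 1000. Cd44 and S100a6 exceeded their expected number in 4 of 12 wells. Gfap and Synm, with 4 nuclei against 6.31 expected, were below it here but not at 500 transcripts (2 and 1.30) or without thinning (23 and 21.7). These counts pool nuclei, are a description without a test, and in WT astrocytes were too few for most pairs, with 26 nuclei holding Gfap and Cd44 where 9.65 were expected. Pairs of other genes were not counted, so 17 of 18 has no share over all genes beside it. The expected numbers also treat a well's astrocytes as alike. In Arc-veh, however, Gfap was found in 29.7% of cluster 1 and 71.2% of cluster 14 nuclei. The part of such cluster differences in the excess was not tested.

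**Figure D5:**
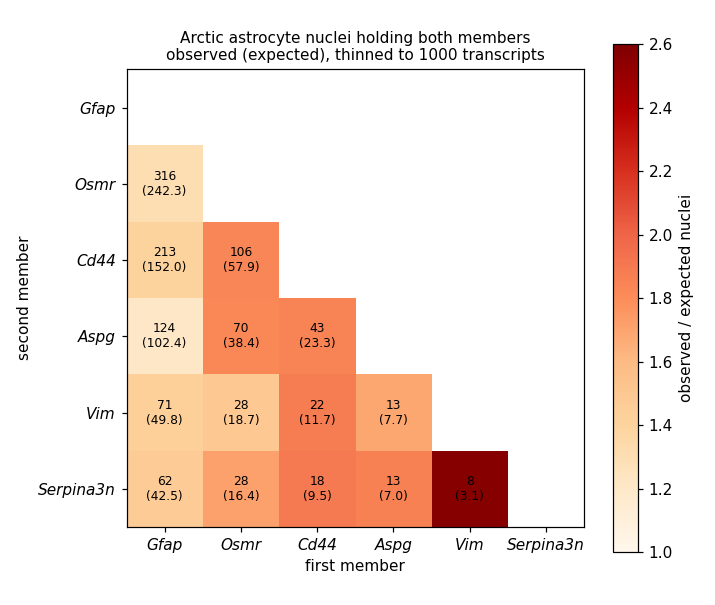
Arctic astrocyte nuclei, thinned to 1000 transcripts, in which both members of a pair were found, with the expected number in brackets and the colour scale giving observed over expected. With both Arctic groups pooled, every pair among these 6 members exceeds its expected number, from 1.21 times for Gfap with Aspg to 2.56 times for Vim with Serpina3n, which rests on 8 nuclei and exceeds its expected number in 6 of 12 wells. Of those 8, 7 were Arc-veh nuclei (1.99 expected), and Arc-PMX had 1 (1.13 expected).

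Outside astrocytes the members differed in where they were expressed and in whether they moved. In neurons 4 members could be tested, and Gfap was called in Arc-veh against WT-veh (0.41 ± 0.17 and 1.98 ± 1.25 CPM, log2 fold change 2.14, SE 0.36, adjusted p = 0.0196), where 0.0331% of all genes were called higher. In Arc-PMX against WT-PMX its log2 fold change was 2.23 (SE 0.35, adjusted p = 0.0139), with 0.00662% of genes called. These levels lay far below the 147 and 1339 CPM of astrocytes. At such levels no WT-veh well met the limit of the filter on low counts in neurons. Gfap was tested there because of wells of the other groups, so its calls are in part fixed by the filter and are a description. The 9 astrocyte markers in neurons summed to a median of 692 CPM in WT-veh and 725 in Arc-veh, with none at 0, and their part in the Gfap result was not tested. The vehicle call was lost without WT-veh F1 (log2 fold change 2.12), F2 (2.08), M1 (2.03) or M3 (2.07), without Arc-veh F3 (2.22), without WT-veh F3 and M3 together (2.17) and with only the compared groups in the fit (2.11). No member could be tested in the neuron nuclei without a transcript of an astrocyte marker.

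Cd44, Serpina3n and Synm in neurons had log2 fold changes of 0.46, 0.14 and 0.09 in Arc-veh against WT-veh (adjusted p = 0.787, 0.928 and 0.929). Serpina3n in oligodendrocytes, the myelinating cells, was too sparse to test with 3 transcripts in WT-veh and 4 in WT-PMX but had 56 in Arc-veh and 62 in Arc-PMX. Its level ranged from 0 to 10.3 CPM in WT-veh wells and from 5.85 to 43.3 CPM in those of Arc-veh, and the ratio of pooled levels was 10.9 (95% interval 3.53 to 54.2, counting error only). It was called in each alternative that let it be tested, with log2 fold changes of 3.26 (SE 0.63, adjusted p = 0.000101) with no filter on low counts, 3.21 (adjusted p = 0.0042) without WT-veh F3 and M3, and 3.54 (adjusted p = 0.00103) with nuclei named by their highest marker score. With so few WT transcripts of Serpina3n the filter is met through Arctic wells, so a call where it could be tested is in part fixed. The fit with no filter rests on the same few WT transcripts. Synm was tested in oligodendrocytes, where 2.12% of genes were called higher and 0.643% lower, and had a log2 fold change of -0.88 (SE 0.40, adjusted p = 0.345). In oligodendrocyte precursors (OPCs) and microglia, 0 members passed the filter, and with no filter Gfap in OPCs was called (adjusted p = 0.0351). This call rests on 16 transcripts in Arc-veh, 11 of them in M3 (82.7 CPM), against 0 in WT-veh, so its fitted fold change is not given. Under PMX205 there were 7 Gfap transcripts in OPCs of each genotype. Serpina3n in OPCs had 1 transcript in WT-veh and 1 in WT-PMX, against 10 in Arc-veh and 14 in Arc-PMX. In each Arctic group 1 of 6 wells had none, and Serpina3n in OPCs was not called with no filter.

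Osmr was also a transcript of vascular cells. Over wells with at least 10 nuclei of a type, its level in WT-veh was 135 to 315 CPM in pericytes (3 wells) and 44.7 to 114 CPM in endothelial nuclei (3 wells), and each lay above the 19.1 to 35.7 CPM of astrocytes. These WT-veh ranges rest on only 14 Osmr transcripts in pericytes and 16 in endothelial nuclei. In WT-PMX the 2 pericyte wells, at 244 and 312 CPM, again lay above all astrocyte wells, while the 4 endothelial wells (55.6 to 549.5 CPM) overlapped with them. In Arc-veh the 3 types overlapped, with 372 to 629 CPM in pericytes (4 wells), 30.8 to 417 CPM in endothelial nuclei (5 wells) and 208 to 532 CPM in astrocytes. In Arc-veh against WT-veh its log2 fold change was 1.40 in pericytes (SE 0.50, adjusted p = 0.811) and 1.39 in endothelial nuclei (SE 0.63, adjusted p = 0.9991), and 0.0% of genes were called in either type. Gfap in ependymal nuclei, the lining of the ventricles, had 2.94 (SE 1.11, adjusted p = 0.998). Over such wells of all 4 groups, Synm was 61.0 ± 31.4 CPM in ependymal, 47.5 ± 49.0 CPM in endothelial and 37.7 ± 24.1 CPM in oligodendrocyte nuclei. It was 36.95 ± 32.4 CPM in fibroblast, 34.3 ± 47.65 CPM in pericyte and 28.7 ± 14.55 CPM in choroid plexus nuclei. In astrocytes it was 3.17 ± 2.80 CPM.

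When all nuclei of a well were summed, 8 members could be tested and 7 were called higher in Arc-veh than in WT-veh, where 3.54% of all genes were called higher. The exception was Synm, with a log2 fold change of 0.02 (SE 0.19, adjusted p = 0.981). Members sparse in WT wells could meet the filter on low counts through their Arctic wells. The counts of calls in this sum are thus in part fixed by the filter and are a description. Serpina3n had 1.56 (SE 0.26) in this sum against 4.96 in astrocytes, and Cd44 1.40 (SE 0.30) against 2.64. The cell makeup of the sum differed as well, with microglia markers at 61.3 to 96.7 CPM in WT-veh and 154 to 333 CPM in Arc-veh and with 134 and 692 microglia nuclei, and its part in these differences was not tested. In Arc-PMX against WT-PMX 6 were called, against 2.82% of all genes, and S100a6 was not (1.15, SE 0.36, adjusted p = 0.0994).

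Genes that work with the members were examined in astrocytes. Of 16 genes of the oncostatin M receptor pathway 11 were tested in Arc-veh against WT-veh, and their median log2 fold change was -0.002. Stat3, the transcription factor that the receptor activates, rose by 1.31 (SE 0.16, adjusted p = 8.25e-08), while Cntfr, the receptor for ciliary neurotrophic factor, fell by 0.80 (SE 0.18, adjusted p = 0.00117). Of 14 ligands and partners of CD44 7 were tested, with a median of -0.10. Msn, a linker of membrane proteins to actin that reached the filter's level in 2 of 12 WT wells and in all 12 Arctic wells, rose by 1.57 (SE 0.36, adjusted p = 0.00163) and Mmp14, a membrane metalloproteinase, fell by 1.26 (SE 0.27, adjusted p = 0.000956).

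Of 18 other filament and filament-linker genes 8 were tested, with a median log2 fold change of 0.0045. Dst, a cytoskeletal linker, rose by 1.18 (SE 0.11, adjusted p = 6.72e-11) and Dmd, dystrophin, fell by 0.31 (SE 0.10, adjusted p = 0.0245). None of the 4 tested of 9 other S100 genes was called, and the median of their fitted changes was 0.62. Only 1 of these 4 would have passed the filter with the WT wells alone, so this median is in part fixed by the filter. Of other pan-reactive genes both of the 2 tested of 6 rose, namely Cp (3.81, SE 0.55) and S1pr3 (4.01, SE 0.37). From the A-1 list 3 of 4 tested of 12 rose (Serping1 3.66, Gbp2 4.00, Ggta1 3.09), and from the A-2 list both tested of 12 rose (Tgm1 6.98, Cd109 1.87). Of these 3 lists Ggta1 alone among the tested genes would have passed the filter with the WT wells, where it reached the level in 11 of 12. The others reached it in 0 or 1 of 12 WT wells and were tested because of their Arctic wells, so these counts are in part fixed by the filter and are a description. Of 15 homeostatic astrocyte genes, all tested and all passing with the WT wells alone, 6 fell and 2 rose, with a median of -0.31. Among those that fell were Glul, glutamine synthetase, by 0.85 (SE 0.14, adjusted p = 1.16e-05), Gpc5 by 0.74 (SE 0.09, adjusted p = 2.07e-07) and Mertk, a phagocytic receptor, by 0.72 (SE 0.12, adjusted p = 1.64e-05), and the water channel Aqp4 rose by 1.09 (SE 0.17, adjusted p = 1.13e-05). The study had applied the pan-reactive, A-1 and A-2 lists to these samples, so their counts are no independent evidence of direction.

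Across the 24 wells, the astrocyte genes whose levels followed the mean of the 7 tested members most closely were Gpam, Dst, Rgl1, Fcgr2b, Enox1, Ggta1, Ank2 and Cacna2d3, with Pearson's r from 0.947 to 0.966. These wells fall into WT and Arctic clusters, so the likeness follows genotype. After the group and sex means were subtracted, the closest were Wdfy3, Lats1, Ctsf, Ino80d, Synj1, Abca1, Cnmd and Ctsb, with r from 0.733 to 0.801, among values of the same libraries.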

How the data were processed

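Nuclei and CD11b-selected cells were barcoded by split-pool (Parse) RNA-seq, and the authors deposited raw transcript (UMI) counts per barcode and gene, made with the Parse pipeline on mm10 (version not given in the sources used here; bcl2fastq is named in the submitters' processing notes). Groups came from the deposited sample sheet through the first-round well. The members and lists were chosen with earlier results of these data known. Nuclei with 300 to 50000 transcripts, at least 400 genes and at most 1% mitochondrial counts were kept (45138 of 1138308 barcodes in nucleus wells), predicted doublets were removed, and the rest were clustered with scanpy 1.11.5 (2000 variable genes without the members, 30 components, 15 neighbours, Leiden resolution 1.5).

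Clusters were named from fixed markers. A cluster of low depth whose 10 top genes also held none of its markers, or one that scored nearly as high for a second type, stayed unnamed (3 clusters, 3009 nuclei). Top genes were defined in 3 ways. The first (in at least 10% of nuclei, fold against all others, 7160 nuclei unnamed) was set aside after the clusters were seen, the second (25%, fold against other types) was used, and the third (50%) was tried after the members' results were seen. Astrocytes numbered 5490 under each.

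Counts were summed per well and type (wells with at least 10 nuclei) and tested with edgeR 4.0.16 (quasi-likelihood test, TMM, filterByExpr, all 4 groups in 1 fit, sex as covariate, R 4.3.3), with Benjamini-Hochberg adjusted p under 0.05 over all genes tested. The study's own test took nuclei as replicates and was not used. The procedure was tested on simulated data. Intervals on pooled counts cover counting error only. Replicate numbers did not pair the wells. Named genes were the members, up to 4 called genes per list with the largest change, and the 8 genes closest to the members' mean. A gene that this rule names is not reported here. The alternatives were DESeq2 1.42.0, other size factors, no count filter, no sex term, only the groups compared, a replicate block, other nucleus filters and naming, and leaving out wells. Sequences came from RefSeq (GRCm38.p6) and gene coordinates from GENCODE (GRCm38), where 10 of 10 identifiers matched.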

Additional observations from a re-analysis of the deposited data

Results flagged for a closer look

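Among 38 groups of 6 wells checked for a sample far from the others, 5 stood out. Chance gives about 1 in 20 where values are continuous, a rate that does not hold for the 4 below that rest on 3 to 6 transcripts. Vim in Arc-PMX F3 was 111.26 CPM from 28 transcripts, and the next well had 65.8 CPM. Serpina3n in WT-PMX M1 was 9.09 CPM from 5 transcripts. Nes was high in WT-veh F3 (29.1 CPM, 3 transcripts), in WT-PMX M2 (5.27 CPM, 6 transcripts) and in Arc-PMX M1 (6.33 CPM, 3 transcripts).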

How the results depend on the processing

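In astrocytes, the count of members called was 7 of 7 in Arc-veh against WT-veh with each single well left out, and 6 to 7 in Arc-PMX against WT-PMX. With all wells, 7.3% and 7.37% of all genes were called higher in these comparisons. Vim, Aspg, Serpina3n and S100a6 were tested because of their Arctic wells, and these fits share most of their wells. The counts are thus a description. With doublets kept, or with members used for clustering, the count was 4 in both comparisons, because the largest astrocyte cluster stayed unnamed. Vim and Cd44 then lost their call in both. With no filter on low counts 1 member was called in WT-PMX against WT-veh, 1 in oligodendrocytes and 1 in OPCs. In oligodendrocytes 1 was called without WT-veh F3 and M3 together and 1 with nuclei named by highest marker score. In neurons the count was 0 without WT-veh F3 and M3 together, 0 with only the compared groups and 0 to 1 with a single vehicle well left out. In neuron nuclei without astrocyte marker transcripts no member could be tested, so the count of 0 there says nothing about the call. For cell types other than astrocytes only vehicle wells were left out in turn. Naming alternatives were not run for the sum of all nuclei, which does not depend on names.

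At 500 transcripts the share of nuclei was 5.86% in WT-veh and 36.5% in Arc-veh for Gfap, 0.866% and 11.4% for Osmr, and 3.63% in Arc-veh for Aspg. Without thinning the Arc-veh shares were 69.0% for Gfap, 35.0% for Osmr, 24.2% for Cd44 and 20.9% for Aspg. Shares thus depend on the depth chosen. In Arc-veh against WT-veh the 3 sparse members had 0 to 17 transcripts per group and were not tested.

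A replicate block by number within sex gave 7 calls in each genotype comparison in astrocytes, 0 in those of PMX205 and 1 in neurons, and changed no count of calls. Same-numbered wells of the same sex did not deviate together (median r -0.05 over 36 pairs, 3 of them over 0.1). Over the alternatives of single members that had passed the filter, 1879 stayed on the same side of the threshold, 19 lost their call and 1 gained one, and no called member turned direction. Members that had not passed it gave 5 further calls (Lcn2 in astrocytes, Serpina3n in oligodendrocytes under 3 alternatives and Gfap in OPCs).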
